A study of Homo sapiens with 18 samples.

Results

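The genes described here encode the subunits of the mitochondrial respiratory chain and ATP synthase that are carried in the nuclear genome. They were found by symbol as every row of the count table named NDUFA, NDUFB, NDUFC, NDUFS or NDUFV with a number, SDHA to SDHD, or with a symbol that begins with UQCR, with COX4 to COX8 or with ATP5. Of 25435 rows, 87 carried such a symbol, and the 80 with at least 10 counts in at least 3 of the 18 libraries are the members. Among them 75 are subunits, with 36 in complex I, 4 in complex II, 8 in complex III, 12 in complex IV (NDUFA4 included) and 15 in complex V. The other 5 members match by name alone. They are COX7A2L, a factor that joins complexes into supercomplexes, ATP5SL, ATP5S, the pseudogene ATP5EP2 and the retrocopy UQCRHL. The 7 rows left out for low counts were COX4I2, COX6A2, COX7A1, COX7B2, COX8C, ATP5L2 and UQCRBP1, and the most abundant of them, UQCRBP1, had 44 counts over all libraries together.

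The libraries came from HEK293doxERN2, a derivative of the human embryonic kidney line HEK293 that carries a doxycycline-inducible transgene for FLAG-tagged ERN2 (IRE1β), a sensor kinase and RNase of the endoplasmic reticulum (ER) found in mucosal epithelia. Cells received doxycycline at 0, 10 or 100 ng/mL over 24 hours, and either thapsigargin at 200 nM or the same volume of DMSO (vehicle) for 3 hours, which gave 6 groups of 3 libraries. Thapsigargin blocks the calcium pump of the ER and is used to provoke ER stress. Every group carries the transgene and no doxycycline-treated line without it was analysed here, so the effects of doxycycline and of the induced ERN2 cannot be told apart. The labels do not say that the 3 libraries of a group came from separate cultures, so the p-values measure the spread between libraries, which may be technical.

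Electrons from NADH enter the chain at complex I and those from succinate at complex II. They pass through complex III and cytochrome c to oxygen at complex IV, while complexes I, III and IV pump protons whose return through complex V drives ATP synthesis. Most subunits are made in the cytosol from nuclear genes and imported, and they assemble with a small set of subunits made inside the mitochondrion. The count table has 0 rows for genes of the mitochondrial genome, so the comparisons cover the nuclear side only.

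The libraries held between 14876416 and 24652240 counts, of which members took 0.523% to 0.876%. ERN2 lay between 6.66 and 9.26 CPM (counts per 1000000 counts of a library, its size scaled by the TMM factor of edgeR) in vehicle at 0 ng/mL and between 244 and 308 CPM in vehicle at 100 ng/mL. At 10 ng/mL it spread from 22.95 to 56.8 CPM in vehicle and from 32.3 to 111 CPM in thapsigargin. HSPA5, the ER chaperone BiP, lay between 476 and 544 CPM in vehicle and between 3085 and 4829 CPM in thapsigargin at 0 ng/mL. At 100 ng/mL the same gene lay between 844 and 956 CPM in vehicle and between 1890 and 2172 CPM in thapsigargin. Whether this smaller response bears on the members at that dose was not tested. The neurofilament genes NEFL, NEFM and INA, which HEK293 cells express, were present in all 18 libraries, and the leukocyte, endothelial and hepatocyte markers PTPRC, PECAM1 and ALB had at most 7 counts in any library. Counts are relative, so a change in the total RNA of a cell would not be seen. Short transcripts as a class moved between libraries. As the median deviation of a gene from its mean over the 18 libraries, on the log2 scale, transcripts under 600 bases were at -0.20 and -0.18 in libraries 1 and 2 of thapsigargin at 0 ng/mL, at 0.19 and 0.27 in libraries 2 and 3 of vehicle at 10 ng/mL, and at 0.29 in library 2 of vehicle at 100 ng/mL. This touches the members because their median transcript is 757 bases long, against 2525 bases for the 15150 rows with as many counts.

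Levels were divided by transcript length in kilobases, the median over the annotated transcripts of a gene rather than the transcripts expressed here. Comparisons between genes therefore depend on that length, which was 460 bases for SDHC, 4502.5 for NDUFA9 and 1878 for ATP5E. The subunits spanned 0.23 to 338 CPM per kilobase with a median of 92.4, as means over the 18 libraries. The median subunit was at 67.0 CPM per kilobase in complex I, 86.1 in complex II, 108 in complex III, 137 in complex IV and 128 in complex V. The most abundant were COX4I1, the regulatory subunit of cytochrome c oxidase, at 338 CPM per kilobase, and ATP5B (ATP5F1B), the catalytic beta subunit of ATP synthase, at 334. NDUFB10 led complex I at 219 CPM per kilobase, UQCR10 led complex III at 191 and SDHC, a membrane anchor of succinate dehydrogenase, led complex II at 122. The lowest of complexes I, II and III were NDUFA9 at 16.4, SDHD, the other membrane anchor, at 34.3 and UQCRFS1, the Rieske iron-sulfur protein, at 21.0 CPM per kilobase. COX6B2, known as a testis isoform, was the lowest of complex IV at 0.23 CPM per kilobase, and ATP5E (ATP5F1E), the epsilon subunit of ATP synthase, was the lowest of complex V at 0.67. ATP5E overlaps TUBB1 on the other strand, and how its reads were assigned is not given in the sources used here, so its level is uncertain.

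Isoform families were dominated by the ubiquitous form. COX4I1 ranged from 202 to 364 CPM over the 18 libraries, while COX4I2 had 1 count in all of them together. COX6A1 was at a mean of 53.8 CPM and its muscle counterpart COX6A2 had 2 counts, COX7A2 was at 97.4 CPM and the muscle form COX7A1 had 1 count, and COX8A was at 109 CPM and COX8C had 1 count. COX6B1 was at 119 CPM against 0.38 CPM for COX6B2, and COX7B at 86.0 CPM against 0 counts for COX7B2. All 3 genes for the identical c-ring protein of ATP synthase were expressed, with ATP5G2 (ATP5MC2) at 179, ATP5G3 (ATP5MC3) at 126 and ATP5G1 (ATP5MC1) at 88.9 CPM per kilobase. These paralogs share coding sequence, so reads could have been split between them.

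Nuclear respiratory genes are known targets of the transcription factors NRF1, GABP and YY1, and a few promoters are shown here. RefSeq windows (GRCh38.p14, 250 bases before to 50 after a transcription start) were given for 65 of the 80 members. The letters searched on both strands were GCATGCGC for NRF1, CCGGAAG for GABP and AAGATGGCG for YY1. GCATGCGC occurred in the windows of 14 of the 65 members and of 3.68% of 27305 genes. CCGGAAG occurred in 20 members and 12.2% of genes, and AAGATGGCG in 9 members and 2.14% of genes. At least 1 of these matched in 33 of 65 members (50.8%) and in 16.5% of all genes. A gene counted as matched if any of its windows held a match. Among members that fell with thapsigargin at 0 ng/mL, as given below, 5 of 17 with a window held a match. Among the other members tested 28 of 47 did. At 100 against 0 ng/mL in thapsigargin 2 of 8 higher members did (others, 31 of 56) and 1 of 2 lower (others, 32 of 62). Whether matches go with these differences was not tested. The windows of 6 members with large differences between groups follow in lower case with the matched letters in capitals, all on the plus strand except that of ATP5J, which is read on the minus strand. COX7B and NDUFB3 hold none of these letters, NDUFB4 and ATP5C1 hold GCATGCGC on both strands in overlapping positions, ATP5J holds letters of all 3 factors, and NDUFS7 holds GCATGCGC 73 bases before the start and AAGATGGCG from base 18 after it.
COX7B (chrX:77899218-77899517): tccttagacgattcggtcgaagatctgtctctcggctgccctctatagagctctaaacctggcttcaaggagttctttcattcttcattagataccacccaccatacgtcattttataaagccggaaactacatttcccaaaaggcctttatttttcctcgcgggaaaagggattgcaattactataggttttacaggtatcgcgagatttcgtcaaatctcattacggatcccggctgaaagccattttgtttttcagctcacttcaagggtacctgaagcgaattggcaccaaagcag
NDUFB3 (chr2:201071751-201072050): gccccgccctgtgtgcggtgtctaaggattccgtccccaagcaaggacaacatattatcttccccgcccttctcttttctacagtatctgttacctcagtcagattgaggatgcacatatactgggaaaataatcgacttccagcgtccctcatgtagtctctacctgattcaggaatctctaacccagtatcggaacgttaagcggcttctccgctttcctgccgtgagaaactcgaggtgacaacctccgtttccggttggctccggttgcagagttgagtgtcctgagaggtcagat
NDUFB4 (chr3:120596086-120596385): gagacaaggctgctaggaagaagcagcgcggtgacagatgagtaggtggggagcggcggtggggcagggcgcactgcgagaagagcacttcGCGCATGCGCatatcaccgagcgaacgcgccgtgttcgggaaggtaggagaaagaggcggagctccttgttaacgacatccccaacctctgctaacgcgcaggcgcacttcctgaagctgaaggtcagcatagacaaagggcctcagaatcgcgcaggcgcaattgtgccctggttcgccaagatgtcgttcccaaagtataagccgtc
ATP5C1 (chr10:7787927-7788226): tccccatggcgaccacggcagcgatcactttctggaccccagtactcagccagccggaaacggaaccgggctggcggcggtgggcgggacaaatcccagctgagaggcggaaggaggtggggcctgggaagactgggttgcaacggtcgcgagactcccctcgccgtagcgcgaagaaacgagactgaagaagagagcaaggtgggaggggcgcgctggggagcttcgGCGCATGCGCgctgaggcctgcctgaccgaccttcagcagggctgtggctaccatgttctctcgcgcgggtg
ATP5J (chr21:25735005-25735304): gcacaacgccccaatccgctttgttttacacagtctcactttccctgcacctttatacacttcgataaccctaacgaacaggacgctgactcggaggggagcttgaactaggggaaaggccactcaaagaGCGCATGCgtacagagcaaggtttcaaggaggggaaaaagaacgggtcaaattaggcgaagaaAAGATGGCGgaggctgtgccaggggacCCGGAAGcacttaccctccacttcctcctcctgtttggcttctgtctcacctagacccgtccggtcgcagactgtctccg
NDUFS7 (chr19:1383657-1383956): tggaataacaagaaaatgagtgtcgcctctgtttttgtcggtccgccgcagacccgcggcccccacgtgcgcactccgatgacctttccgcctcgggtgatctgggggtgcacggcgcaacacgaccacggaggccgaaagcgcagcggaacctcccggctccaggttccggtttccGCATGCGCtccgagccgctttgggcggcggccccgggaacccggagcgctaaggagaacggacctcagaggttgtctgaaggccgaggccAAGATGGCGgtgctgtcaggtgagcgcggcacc

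Summed over the subunits of a complex, the level was lowest in thapsigargin at 0 ng/mL for all 5 complexes. Complex I subunits summed to 2329, 2197 and 2481 CPM in vehicle at 0 ng/mL and to 1769, 1937 and 2190 CPM in thapsigargin. The 3 thapsigargin libraries were all below the 3 vehicle libraries, by a narrow margin. For complex IV the sums were 1111, 1001 and 1166 CPM in vehicle and 726, 778 and 869 CPM in thapsigargin, and for complex III 806, 771 and 849 against 582, 626 and 646 CPM. These sets of libraries did not overlap either, and the log2 differences of the group means were -0.25 for complex I, -0.20 for complex II, -0.39 for complex III, -0.47 for complex IV and -0.33 for complex V. Without SDHA, its most abundant member, complex II stood at -0.47. With doxycycline in vehicle the sums of all members were higher but spread widely, at 7196, 7977 and 8834 CPM at 10 ng/mL and 6816, 8853 and 7888 CPM at 100 ng/mL, against 6875, 6515 and 7302 CPM at 0 ng/mL. In thapsigargin they were 5059, 5540 and 6023 CPM at 0 ng/mL, 5422, 6452 and 7350 CPM at 10 ng/mL, and 6870, 6375 and 6191 CPM at 100 ng/mL.

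**Figure D1:**
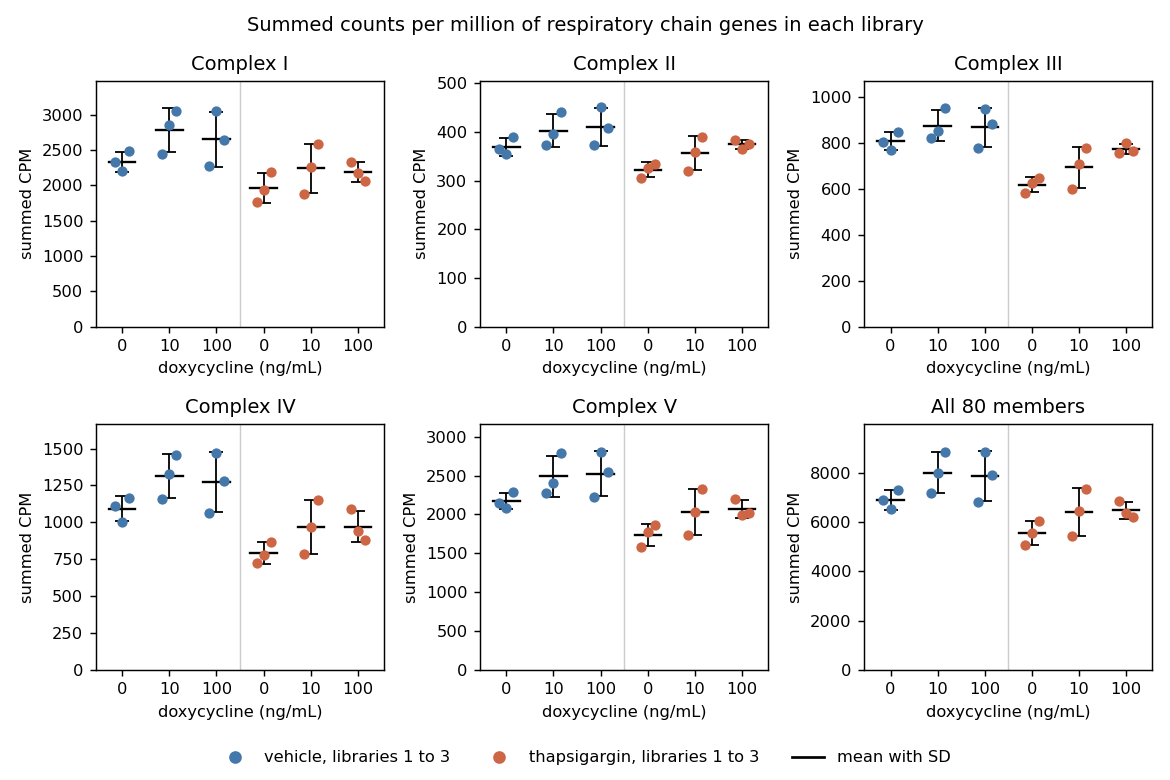
Summed CPM (vertical axis, from 0) of the subunits of each complex and of all 80 members in each library, by doxycycline dose (horizontal axis), with vehicle libraries in blue, thapsigargin libraries in orange, and the mean with its SD of 3 libraries in black. In every panel the 3 thapsigargin libraries at 0 ng/mL lie below the 3 vehicle libraries at 0 ng/mL, and the complex IV means are 1093 CPM in vehicle and 791 CPM in thapsigargin.

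The first comparison asked what 3 hours of thapsigargin did to these genes without doxycycline. Part of the respiratory chain genes fell, COX7B and NDUFB3 the most, and no member rose. Of 78 members tested, 21 were lower and 0 higher at an adjusted p under 0.01 in edgeR's quasi-likelihood test, against 4.74% of all genes lower and 6.45% higher, and the median member stood at -0.31 on the log2 scale against -0.01 for all 14397 genes tested. The 21 were spread over the complexes, with 7 of 36 subunits of complex I, 1 of 4 of complex II, 2 of 8 of complex III, 6 of 11 tested of complex IV and 5 of 15 of complex V. In 38 members the 3 thapsigargin libraries lay wholly below the 3 vehicle libraries and in 1 wholly above, against 20.2% and 19.8% of all genes. DESeq2 called 26 lower and 1 higher (all genes, 7.47% and 8.74%), and a fit with the replicate number as a block called 35 lower and 1 higher (all genes, 12% and 12.8%). The 1 higher member was NDUFV3 in both.

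The largest decrease was in COX7B, a small nuclear subunit of cytochrome c oxidase, which was at 97.8, 100.3 and 107 CPM in vehicle and at 44.9, 53.4 and 38.7 CPM in thapsigargin. Every thapsigargin library was far below every vehicle library. The log2 fold change was -1.14 (SE 0.13, edgeR adjusted p = 6.52e-05). NDUFB3, an accessory subunit of the complex I membrane arm, was at 31.5, 36.4 and 38.1 CPM in vehicle and fell to 17.0, 16.0 and 16.3 CPM, a log2 fold change of -1.09 (SE 0.13, edgeR adjusted p = 7.89e-05). No thapsigargin library of NDUFB3 reached its lowest vehicle library. The SDHC anchor was at 66.4, 70.8 and 69.2 CPM in vehicle and at 39.0, 40.5 and 34.96 CPM in thapsigargin (log2 fold change -0.84, SE 0.11, edgeR adjusted p = 0.000245). It was the only subunit of succinate dehydrogenase past the threshold here. The flavoprotein SDHA, which holds the catalytic site, stood at 0.05 (adjusted p = 0.779), the iron-sulfur subunit SDHB at -0.25 (adjusted p = 0.128) and SDHD at -0.35 (adjusted p = 0.0758) in the same edgeR fit.

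ATP5G1, one of the c-ring genes, fell from 51.8, 46.8 and 58.5 CPM to 23.5, 26.4 and 32.9 CPM (log2 fold change -0.91, SE 0.14, edgeR adjusted p = 0.000748). The other c-ring genes stood at -0.50 (ATP5G3, adjusted p = 0.0117) and -0.21 (ATP5G2, adjusted p = 0.195), neither past the threshold. UQCRB, which lines the ubiquinone site of complex III, fell from 117, 128 and 129 CPM to 83.0, 80.02 and 45.9 CPM (log2 fold change -0.83, SE 0.18, edgeR adjusted p = 0.00538), with library 3 far below the other two. It missed the threshold in a fit with all 6 groups, which called 14 of the 21 lower (all genes, 3.39%), and without library 1 or library 3 of vehicle. The 16 further members that fell were NDUFS5, COX7C, NDUFB4, COX6B1, NDUFA4, NDUFV2, ATP5C1, NDUFB1, NDUFA2, COX7A2, COX6C, ATP5H, ATP5O, ATP5J, NDUFA12 and UQCR10, with log2 fold changes from -0.73 to -0.49. In complex V they included 3 of the 4 peripheral stalk subunits (ATP5H, ATP5J and ATP5O), which hold the catalytic head still while the c-ring turns, and the gamma subunit ATP5C1, its central shaft.

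The catalytic subunits were described separately from the accessory ones. Among the 7 nuclear-encoded core subunits of complex I, which include the carriers of its flavin and iron-sulfur clusters, 1 fell (NDUFV2, log2 fold change -0.66) and the median was -0.02, whereas the 29 accessory subunits had 6 that fell and a median of -0.31. NDUFV2 overlaps antisense genes in the annotation, so its level is uncertain where counting did not use strand. It also overlaps a gene on the same strand, which strand would not resolve. Other members overlap genes on the other strand too, among them SDHC, ATP5G1, ATP5J, NDUFB3, ATP5H and NDUFA2. NDUFS1, the largest iron-sulfur subunit, was at 118, 115 and 121 CPM in vehicle and 118, 128 and 107 CPM in thapsigargin, overlapping throughout. NDUFV1, which binds NADH, stood at 0.06 (adjusted p = 0.776). The catalytic beta subunit ATP5B stood at -0.14 (adjusted p = 0.397) and the alpha subunit ATP5A1 (ATP5F1A) at -0.24 (adjusted p = 0.107). UQCRC1, a core protein of complex III, and UQCRFS1 stood at -0.03 and -0.18 (adjusted p = 0.9 and 0.304, all from edgeR). The other core protein of complex III, UQCRC2, was at 144, 143.8 and 147 CPM in vehicle and 108.4, 120.7 and 88.5 CPM in thapsigargin, with no overlap (log2 fold change -0.44, edgeR adjusted p = 0.0184). It missed the threshold there and passed by DESeq2, without the filter on low counts and with the length and GC correction described below. Whether core and accessory subunits differed was not tested.

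The decrease moved with transcript length and GC content. Of members with transcripts under 1000 bases, 19 of 51 fell (37.3%), against 9.15% of all genes of that length, and of the 27 longer members 2 fell (7.41%), against 4.37% of all longer genes. By GC content, 11 of 19 members under 45% fell (57.9%, all genes 5.94%), 9 of 40 between 45% and 55% (22.5%, all genes 4.82%) and 1 of 19 at 55% and over (5.26%, all genes 3.65%). When a trend on length and GC was removed from each library, 21 members were again lower, of which 17 were among the 21 above, and NDUFV3 was higher (all genes, 9.49% lower and 10.7% higher), and the median member moved from -0.31 to -0.18. COX7B was then at -0.89 and NDUFB3 at -0.79. The count also varied when 1 library was left out, as did the calls over all genes. It was 8 without library 3 of vehicle and 10 without library 1 of vehicle (all genes, 2.32% and 2.03%). It was 10 without library 1 of thapsigargin and 13 without library 2 of thapsigargin (all genes, 2.19% and 2.53%). COX7B, NDUFB3, NDUFB4, NDUFA4, SDHC, COX7C, ATP5C1 and ATP5G1 passed in all 6 fits that left out a library.

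**Figure D2:**
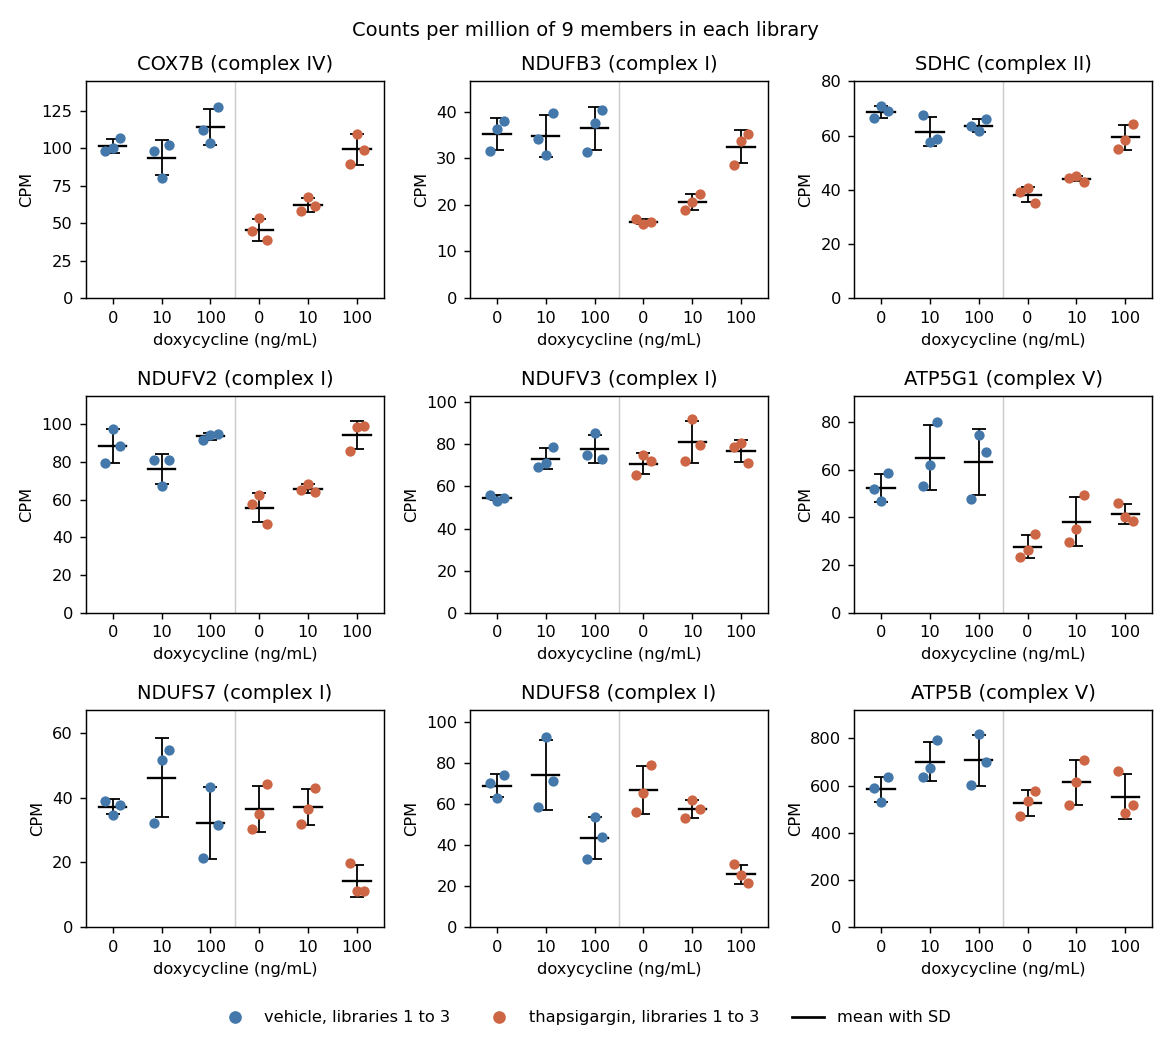
CPM (vertical axis, from 0) of 9 members in each library by doxycycline dose (horizontal axis), with vehicle in blue, thapsigargin in orange and the mean with its SD of 3 libraries in black. COX7B, NDUFB3, SDHC and NDUFV2 are low in thapsigargin at 0 ng/mL and near their vehicle levels in thapsigargin at 100 ng/mL, whereas NDUFS7 and NDUFS8 are lowest in thapsigargin at 100 ng/mL.

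The same treatment was then compared at 10 and at 100 ng/mL doxycycline. At 10 ng/mL no member of 79 passed in either direction (all genes, 1.16% higher and 0.294% lower), although 77 of the 79 stood below 0 with a median of -0.37, and 31 were lower at an unadjusted p under 0.05 (all genes, 11%). By DESeq2, 11 members were lower at an adjusted p under 0.01 (all genes, 2.97%), with the replicate number as a block 48 (all genes, 11.4%) and with the length and GC correction described above 4 (all genes, 1.92%). The nearest were NDUFB3, at 34.1, 30.8 and 39.7 CPM in vehicle and 19.0, 20.7 and 22.4 CPM in thapsigargin (log2 fold change -0.75, edgeR adjusted p = 0.0154), and NDUFB4, at 75.8, 85.0 and 88.0 against 40.7, 51.6 and 56.8 CPM (log2 fold change -0.73, edgeR adjusted p = 0.018). Both sets of libraries were fully apart. At 100 ng/mL again no member of 79 passed (all genes, 0.18% higher and 0.0208% lower), with a median of -0.27 and 21 members lower at an unadjusted p under 0.05 (all genes, 12.3%), and DESeq2 called 3 lower (COX5A, NDUFB7 and NDUFS7, all genes 3.29%), and the length and GC correction left 2 lower (COX5A and NDUFS7, all genes 4.67%). COX7B was at 112, 103 and 127 CPM in vehicle and 89.2, 109.7 and 98.5 CPM in thapsigargin, and SDHC at 63.5, 61.6 and 66.1 against 55.1, 58.3 and 64.4 CPM. These groups overlapped. Without library 1 of thapsigargin at 100 ng/mL, 14 members were lower and 1 higher (UQCRB), while the calls over all genes grew to 7.84% lower and 9.78% higher.

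**Figure D3:**
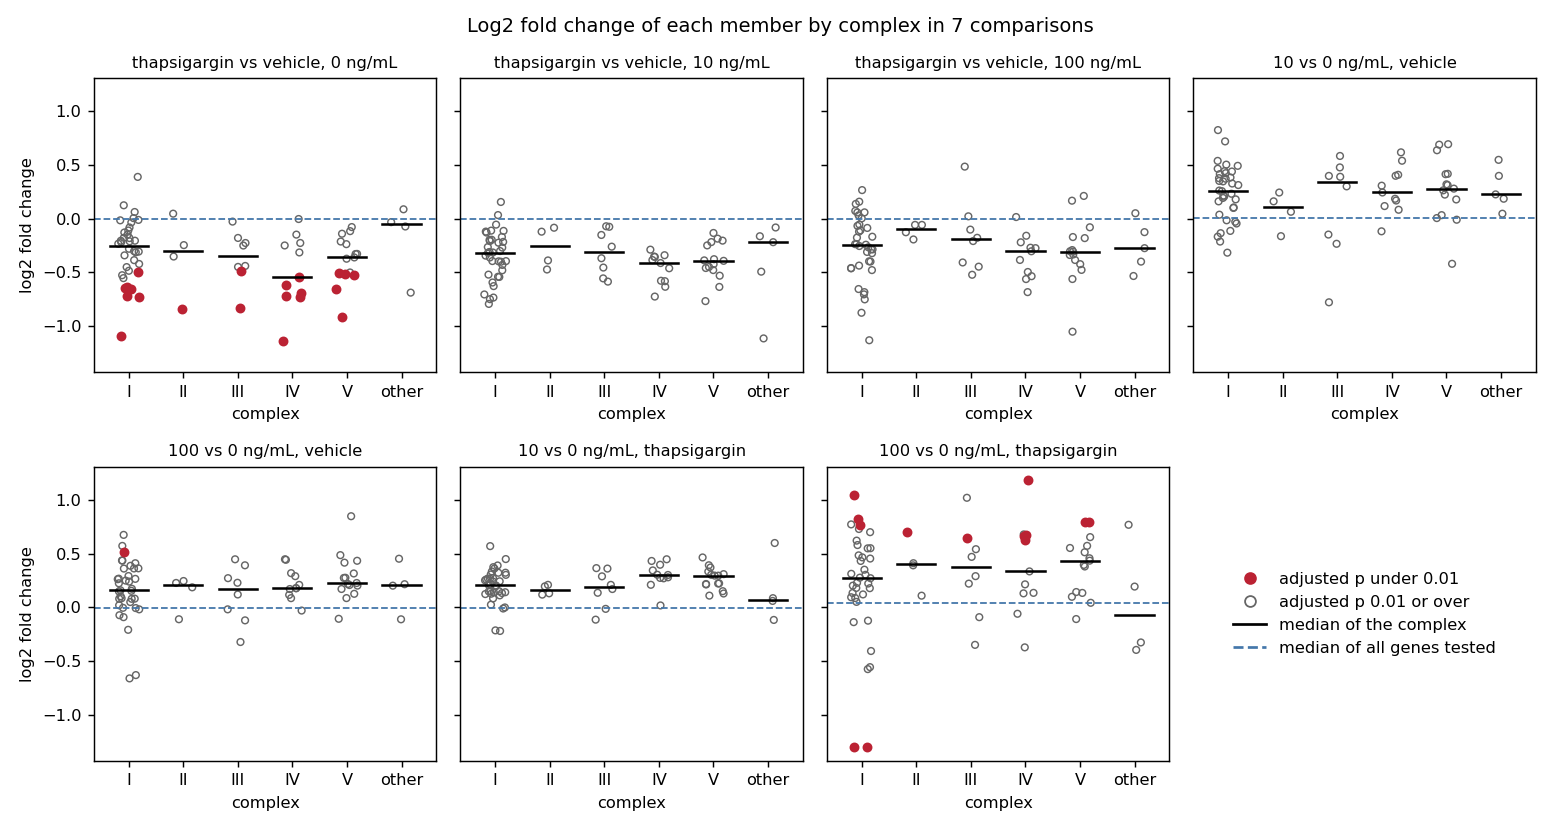
Log2 fold change (vertical axis) of each member in 7 comparisons, grouped by complex along the horizontal axis, with members past an adjusted p of 0.01 in red, the others open, the median of each complex as a black bar and the median of all genes tested as a dashed line. Without doxycycline 21 members are red and below 0 with thapsigargin, and in thapsigargin at 100 against 0 ng/mL 11 are red above and 2 below 0.

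Doxycycline was compared with no doxycycline first in vehicle. At 10 ng/mL 0 of 79 members passed in either direction (all genes, 0.138% higher and 0.0552% lower), with a median member of 0.26 against 0.00 for all genes, and 33 members were higher and 2 lower at an unadjusted p under 0.05 (all genes, 14% and 16.5%). DESeq2 called 4 higher (ATP5I, COX6A1, NDUFA2 and NDUFB2) and 1 lower (UQCRB), against 0.738% and 1.89% of all genes. With the replicate number as a block NDUFB2 was higher and UQCRB lower (all genes, 0.241% and 0.614%). NDUFB2, an accessory subunit of complex I, was at 32.8, 48.6 and 58.0 CPM against 25.1, 22.2 and 31.7 CPM at 0 ng/mL (log2 fold change 0.82, SE 0.20, edgeR adjusted p = 0.0713). UQCRB was at 105, 58.3 and 55.5 CPM against 117, 128 and 129 CPM (log2 fold change -0.78, SE 0.20, edgeR adjusted p = 0.0767). In both genes library 1 of the 10 ng/mL group was nearest to the controls. Without library 1 of 10 ng/mL vehicle, 29 members were higher and 2 lower (ATP5C1 and UQCRB), and the calls over all genes rose to 8.05% higher and 10.7% lower. In the same libraries 2 and 3, short transcripts of all kinds stood high, as given above. With all 6 libraries Spearman's rho between fold change and GC content was 0.55 over members and 0.69 over 14087 genes. With transcript length it was -0.15 and -0.28. Members under 45% GC had a median of -0.01 and those at 55% and over 0.40 (all genes, -0.30 and 0.26). Whether length or GC content had a part in the result was not tested. The length and GC correction was not run without library 1. With all 6 libraries 0 members were called before and after it (all genes after it, 0.412% higher and 0.575% lower). The median member moved from 0.26 to 0.11 with the correction. With the block added to the correction NDUFB2 was higher and UQCRB lower (all genes, 0.703% and 1.52%).

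At 100 ng/mL in vehicle 1 of 78 members rose and 0 fell, against 0.838% and 7.49% of all genes. The 1 was NDUFV3, a small accessory subunit of the NADH-binding module, at 55.9, 53.3 and 54.7 CPM without doxycycline and 74.7, 85.6 and 73.1 CPM at 100 ng/mL. The 2 groups were fully apart. The log2 fold change was 0.51 (SE 0.11, edgeR adjusted p = 0.00715), and it passed without library 1 or library 2 of the 100 ng/mL group and missed the threshold when library 3 of that group or any 1 control library was left out. NDUFV3 was at 69.4, 71.3 and 78.9 CPM at 10 ng/mL in vehicle, also wholly above the controls (edgeR adjusted p = 0.0767), and at 65.7, 75.1 and 72.1 CPM in thapsigargin without doxycycline (log2 fold change 0.39, edgeR adjusted p = 0.0204). It was the only member whose 3 libraries lay wholly above vehicle in that last comparison.

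The highest and lowest fold changes of each complex at 100 ng/mL in vehicle were, apart from NDUFV3, not past the threshold. In complex I they were NDUFB2 at 0.67 (adjusted p = 0.0539) and NDUFS8 at -0.66 (adjusted p = 0.0147), and in complex II SDHB at 0.25 and SDHC at -0.11 (adjusted p = 0.197 and 0.506). In complex III they were UQCR11 at 0.45 and UQCRB at -0.32 (adjusted p = 0.115 and 0.204), in complex IV COX6A1 at 0.45 and COX5A at -0.03 (adjusted p = 0.134 and 0.902), and in complex V ATP5E at 0.85 and ATP5C1 at -0.11 (adjusted p = 0.127 and 0.6, all edgeR). ATP5E was at 0.56 to 2.34 CPM in vehicle, so its value rests on few counts. The median member was 0.21 above the controls, against -0.01 over all genes. NDUFS8, which carries iron-sulfur clusters that lead electrons to ubiquinone, was at 33.2, 53.8 and 44.0 CPM against 70.2, 62.9 and 74.4 CPM. All 3 libraries were below all 3 controls. With the length and GC correction its log2 fold change was -0.95 (adjusted p = 4.5e-07), and NDUFS7 and NDUFC2 then passed as lower too, with NDUFV3 still higher (all genes, 12.2% lower and 3.65% higher). DESeq2 called NDUFV3 and NDUFB2 higher and NDUFC2 and NDUFS8 lower (all genes, 1.95% and 9.48%).

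In thapsigargin the dose of 10 ng/mL left 0 of 78 members past the threshold and 0 of 14509 genes in all (0% in either direction), with 71 of the 78 members above 0, a median of 0.22 and 8 of them higher and 0 lower at an unadjusted p under 0.05 (all genes, 1.23% and 2.99%). DESeq2 called 0 members. ERN2 itself stood at 2.42 here and missed the threshold (edgeR adjusted p = 0.292), so 0 calls do not show that nothing changed. With the replicate number as a block 13 members were higher and 0 lower, against 1.36% and 2.53% of all genes. The labels do not say that same-numbered libraries are pairs. Deviations of such libraries from their group means correlated here by 0.36, 0.30 and 0.41. Transcripts under 600 bases also rose with the library number in both groups. Their median deviations were -0.20, -0.18 and -0.08 without doxycycline, and -0.18, -0.02 and 0.13 with it. Whether true pairs or this shared trend gave the correlations was not tested. With the length and GC correction added to the block 3 were higher (ATP5B, COX7B and NDUFA1, all genes 0.859%). NDUFA1, an accessory subunit of complex I, was one of them (log2 fold change 0.44 and edgeR adjusted p = 0.000255 with the block, adjusted p = 0.978 without it).

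At 100 ng/mL in thapsigargin some members were higher than without doxycycline, COX7B and NDUFB3 the most. Of 78 tested, 11 were higher, against 1.53% of all genes, and 2 (2.56%) were lower, a share below the 9% of all genes, and the median member stood at 0.32 against 0.04 for all 14358 genes tested. This comparison shares its control libraries with the thapsigargin comparison at 0 ng/mL, so a member that was low in those 3 libraries gives a lower value in one and a higher value in the other. The higher members were COX7B, NDUFB3, NDUFV2, ATP5J, ATP5C1, NDUFS5, SDHC, COX6C, COX7A2, UQCR10 and COX7C. The lower were NDUFS7 and NDUFS8, both among the core subunits of complex I at the last iron-sulfur clusters before ubiquinone.

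COX7B was at 44.9, 53.4 and 38.7 CPM without doxycycline and at 89.2, 109.7 and 98.5 CPM at 100 ng/mL, all with thapsigargin. The groups were far apart. The log2 fold change was 1.18 (SE 0.17, edgeR adjusted p = 0.000419). NDUFB3 was at 17.0, 16.0 and 16.3 CPM and at 28.5, 33.8 and 35.2 CPM (log2 fold change 1.05, SE 0.17, edgeR adjusted p = 0.000708). NDUFV2, a core iron-sulfur subunit of the NADH-binding module whose overlap with antisense genes was given above, was at 57.7, 62.3 and 47.1 CPM and at 85.6, 98.8 and 98.9 CPM (log2 fold change 0.82, SE 0.16, edgeR adjusted p = 0.00344). The same gene was at 91.5, 94.4 and 95.1 CPM in vehicle at 100 ng/mL, which overlaps its thapsigargin libraries at that dose. ATP5J (ATP5PF), coupling factor 6 of the peripheral stalk, was at 76.0, 79.9 and 80.1 CPM and at 116, 133 and 141 CPM (log2 fold change 0.79, SE 0.14, edgeR adjusted p = 0.00162). Its groups were apart by more than the whole range of either. ATP5C1 (ATP5F1C) was at 116, 125 and 102 CPM and at 149, 205 and 213 CPM (log2 fold change 0.79, SE 0.17, edgeR adjusted p = 0.00568). SDHC was at 39.0, 40.5 and 34.96 CPM and at 55.1, 58.3 and 64.4 CPM (log2 fold change 0.70, SE 0.15, edgeR adjusted p = 0.00658). The other 5 higher members had log2 fold changes from 0.63 to 0.76.

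NDUFS7 was at 30.3, 35.04 and 44.3 CPM without doxycycline and at 19.9, 11.3 and 11.3 CPM at 100 ng/mL. Library 1 of the higher dose was nearer to the controls than the other two. The log2 fold change was -1.30 (SE 0.23, edgeR adjusted p = 0.00156). NDUFS8 was at 56.3, 65.3 and 79.3 CPM and at 30.8, 25.4 and 21.6 CPM (log2 fold change -1.30, SE 0.18, edgeR adjusted p = 0.00026). In vehicle the same dose gave NDUFS7 21.3, 43.4 and 31.6 CPM against 39.1, 34.8 and 37.8 CPM, which overlap. NDUFS7 overlaps antisense genes in the annotation, and whether strand was used in counting is not given in the sources used here. The catalytic members NDUFS1 and NDUFV1 stood at 0.18 and 0.13 (adjusted p = 0.391 and 0.622), SDHA and SDHB at 0.11 and 0.39 (adjusted p = 0.59 and 0.0562), SDHD at 0.41 (adjusted p = 0.145), UQCRC1 and UQCRFS1 at -0.35 and -0.09 (adjusted p = 0.154 and 0.69), and ATP5A1 and ATP5B at 0.14 and 0.13 (adjusted p = 0.459 and 0.534, all edgeR).

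The higher members were mostly of low GC content. Of those with transcripts under 45% GC, 7 of 19 rose and 0 fell (all genes, 2.62% and 3.75%), while of those at 55% GC and over 0 of 19 rose (all genes, 0.304%). Both lower members were in that last class, where 2 of 19 (10.5%) is no more than the 13.4% of all genes. Across the 78 members Spearman's rho between fold change and GC content was -0.53, and across 13950 genes it was -0.39. These points share libraries and genes are not independent, so both are descriptions. After the length and GC correction 11 members were higher and 5 lower (all genes, 6.52% and 13.1%). Of the 11 above, 7 remained, COX7B at 0.73 and NDUFB3 at 0.52 among them. COX6C, COX7A2, COX7C and SDHC no longer passed, and COX5A, NDUFB7 and NDUFB11 joined NDUFS7 and NDUFS8 as lower. DESeq2 called 22 higher and 2 lower (all genes, 4.72% and 11.5%), and the replicate block left 6 higher and 2 lower (all genes, 1.07% and 8.62%). Without library 1, 2 or 3 of thapsigargin at 100 ng/mL, 22, 2 and 7 members were higher (all genes, 13.5%, 0.206% and 0.804%). Without library 1, 2 or 3 of thapsigargin at 0 ng/mL, 2, 4 and 6 were (all genes, 0.282%, 0.461% and 0.432%). Lower members numbered 4 without library 1 and 1 without library 2 of the 100 ng/mL group (all genes, 13.7% and 5.03%). COX7B, NDUFB3 and NDUFS8 passed in all 6 of these fits.

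**Figure D4:**
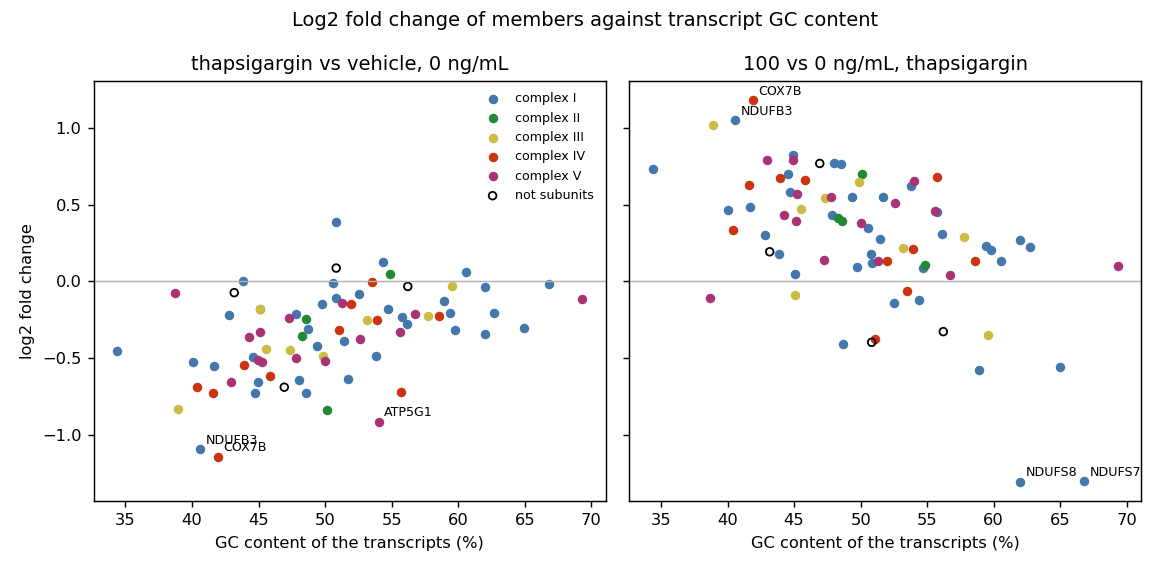
Log2 fold change (vertical axis) of each member tested against the median GC content of its transcripts (horizontal axis, percent). Colours give the complex, and open circles are members that are not subunits. The panels show thapsigargin against vehicle at 0 ng/mL (left) and 100 against 0 ng/mL doxycycline in thapsigargin (right). COX7B and NDUFB3 lie at 41.9% and 40.6% GC at the extremes of both panels, and NDUFS7 and NDUFS8 at 66.8% and 62.0% at the bottom of the right one.

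Whether the response to thapsigargin differed with the dose was tested directly as an interaction. At 100 ng/mL 0 of 78 members passed in either direction (all genes, 0.00677% higher and 0.0339% lower), with 19 higher and 3 lower at an unadjusted p under 0.05 (all genes, 15.6% and 9.15%), and DESeq2 called 6 higher (ATP5C1, ATP5J, COX7B, NDUFB3, NDUFV2 and SDHC) at an adjusted p under 0.01 (all genes, 0.934%). The nearest to the threshold were NDUFB3 at 1.06 (SE 0.20, adjusted p = 0.0266), SDHC at 0.86 (SE 0.16, adjusted p = 0.0276), COX7B at 1.06 (SE 0.20, adjusted p = 0.0286) and ATP5J at 0.76 (SE 0.15, adjusted p = 0.0313), in log2 units by edgeR. The median member was at 0.18 against 0.04 for all genes, and scaling by library totals moved these to 0.014 and -0.14 and DESeq2 to 0.12 and -0.03. With the length and GC correction the medians were 0.063 and -0.012 and 0 members passed (all genes, 0.649% higher and 1.1% lower). Spearman's rho of the interaction with GC content was -0.63 over members and -0.59 over all genes. Whether GC content had a part was not tested. HSPA5 stood at -1.58 in the same interaction (edgeR adjusted p = 0.00898). Without library 1 of thapsigargin at 100 ng/mL, 9 members were higher and 1 (NDUFS7) lower, against 5.79% and 2.82% of all genes. At 10 ng/mL 0 of 79 members passed (all genes, 0% in either direction) and 6 were higher and 0 lower at an unadjusted p under 0.05 (all genes, 2.68% and 1.79%), and DESeq2 called 0.

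**Figure D5:**
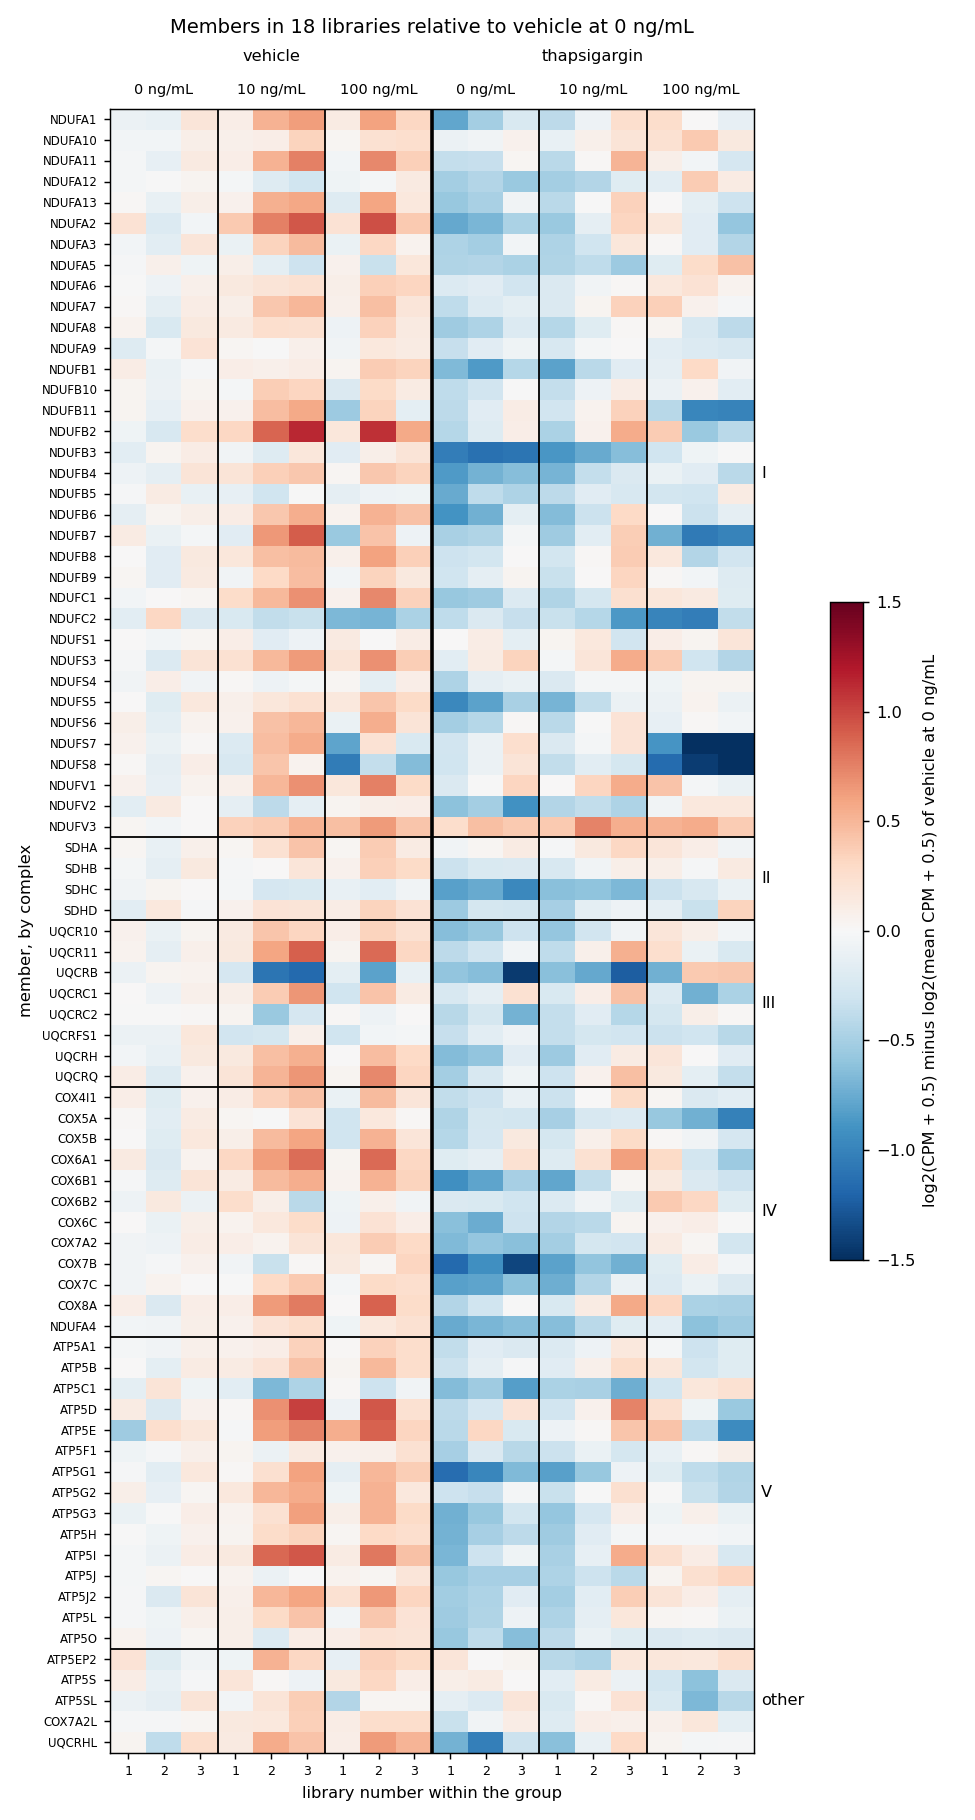
Members (rows, grouped by complex) in the 18 libraries (columns), coloured by log2(CPM + 0.5) minus the log2(mean CPM + 0.5) of vehicle at 0 ng/mL, with red above and blue below. Blue runs through most rows in thapsigargin at 0 ng/mL, and libraries 2 and 3 of vehicle at 10 ng/mL and library 2 of vehicle at 100 ng/mL are the reddest columns.

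Of the 5 members that are not subunits, edgeR as described called 0 in any comparison, and at most 1 passed an unadjusted p under 0.05 in each direction of a comparison. COX7A2L stood between -0.22 and 0.23 in the 7 comparisons of 2 groups. UQCRHL, a retrocopy whose reads cannot be separated with confidence from those of UQCRH, was at 10.3, 7.54 and 12.1 CPM in vehicle and 5.95, 4.64 and 7.90 CPM in thapsigargin at 0 ng/mL (log2 fold change -0.69, edgeR adjusted p = 0.0384), which overlap. It passed as lower there without the filter on low counts (edgeR adjusted p = 0.00915), with the replicate block (edgeR adjusted p = 0.000452) and without library 3 of thapsigargin, and the block also made it lower at 10 ng/mL. DESeq2 called UQCRHL higher at 100 ng/mL in thapsigargin (log2 fold change 0.77, adjusted p = 0.00915). With the length and GC correction and the block together, ATP5SL passed as lower at 100 ng/mL in vehicle and COX7A2L and UQCRHL with thapsigargin at 10 ng/mL. COX6B2 was too low to be tested in any comparison.

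Genes that work with the chain were described through lists of assembly factors, regulators, chaperones and mitochondrial ribosomal proteins. Of 7 subunits outside the symbol patterns, 6 were tested with thapsigargin at 0 ng/mL. Among them USMG5 (ATP5MD) and C14orf2 (ATP5MPL), both small membrane subunits of ATP synthase, fell, at -1.21 and -0.78 (edgeR adjusted p = 0.000212 and 0.00131), and USMG5 rose at 100 ng/mL in thapsigargin, at 1.37 (edgeR adjusted p = 0.00174). Among the 46 assembly factors tested, 4 fell (8.7%) and 3 rose (6.52%) with thapsigargin at 0 ng/mL, against 4.74% and 6.45% of all genes. COX17, the copper chaperone of cytochrome c oxidase, stood at -0.73, and the complex IV assembly proteins COA3 and PET100 at -0.77 and -0.74, together with the ATP synthase assembly factor ATPAF1 at -0.45, while COX10, COX19 and FOXRED1 rose by 0.55 to 0.62. At 100 ng/mL in thapsigargin 4 assembly factors were higher (COX17, PET100, COA3 and COA4, from 0.76 to 1.01) and 0 lower, against 1.53% and 9% of all genes. In vehicle at 100 ng/mL TTC19, which acts in complex III maturation, fell by 0.65, as 1 of 46 where 7.49% of all genes fell.

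Of 12 transcriptional regulators of the respiratory genes, 4 rose and 0 fell with thapsigargin at 0 ng/mL (all genes, 6.45% and 4.74%). They were PPARGC1A (PGC-1 alpha), the coactivator of mitochondrial biogenesis, at 1.04 (edgeR adjusted p = 0.00226), its relative PPRC1 at 0.76, TFB1M, a mitochondrial rRNA methyltransferase, at 0.71, and the nuclear receptor ESRRA at 0.65. ESRRA was also higher at 100 ng/mL in vehicle (0.75, edgeR adjusted p = 0.00808). Of 76 mitochondrial ribosomal proteins, 3 fell with thapsigargin at 0 ng/mL (MRPL13, MRPL33 and MRPL51), a share of 3.95% that is below the 4.74% of all genes, with a list median of -0.10, and 1 rose at 100 ng/mL in vehicle (MRPS18B; all genes, 0.838%). HSPE1, the HSP10 cochaperonin, was the 1 of 12 mitochondrial chaperones and proteases past the threshold, at -1.08 with thapsigargin at 0 ng/mL and at 0.95 at 100 ng/mL in thapsigargin (edgeR adjusted p = 0.00604 and 0.00506). The list medians with thapsigargin at 0 ng/mL were -0.30 for the further subunits, -0.03 for the assembly factors, 0.16 for the regulators and 0.07 for the chaperones and proteases, against -0.01 for all genes. In the remaining 4 comparisons of 2 groups edgeR called 0 genes of these lists at an adjusted p under 0.01, with up to 24 ribosomal proteins and 12 assembly factors higher at an unadjusted p under 0.05 at 10 ng/mL in vehicle (all genes, 14%). DESeq2 called at most 1 gene higher and 3 lower in any of these lists there. Its shares of all genes in these comparisons ran from 0.0138% to 4.57% higher and from 0.255% to 3.29% lower.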

How the data were processed

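RNA-seq libraries from 6 groups of 3 were sequenced as single-end reads of 75 cycles from a stranded mRNA kit. The values are deposited counts of reads per gene symbol, not normalized, made by the authors with the VIPER pipeline. The submitters' processing notes name hg38, STAR and DESeq2. The annotation and the strand setting of the counting are not given in the sources used here.

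Each pair of groups was compared by edgeR 4.0.16's quasi-likelihood test (R 4.3.3) on the 6 libraries of the comparison, and the interactions on the 12 they involve, with TMM factors, a filter on low counts and Benjamini-Hochberg adjustment over all genes tested. An adjusted p under 0.01 was called. DESeq2 1.42.0, other scalings, no filter, a replicate block, a length and GC correction (GENCODE 29) and leaving out each library were the alternatives. The procedure was tested on simulated data. Members, gene lists and the rule for naming genes were chosen with earlier results of these data known. That rule took every member called where there were 10 or fewer, otherwise the 5 highest and 5 lowest called, the extremes of each complex in vehicle and per kilobase, the catalytic subunits and the isoform families. Of these, 1 is counted among the members but its own values are not reported here. Other members and list genes were named after their values were seen.

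Same-numbered libraries were checked for pairing by the correlation of their deviations from group means. It ranged from -0.31 to 0.44, and exceeded 0.1 in all 3 pairs only for 10 against 0 ng/mL in thapsigargin (0.36, 0.30 and 0.41). No 2 libraries of a group agreed within sampling noise.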

Additional observations from a re-analysis of the deposited data

Results flagged for a closer look

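SDHC, a membrane anchor of succinate dehydrogenase, had differences of opposite sign at 100 against 0 ng/mL doxycycline in vehicle and in thapsigargin. In vehicle the log2 difference was -0.11 and did not pass (edgeR adjusted p = 0.506), and the 3 libraries at 100 ng/mL lay below the 3 at 0 ng/mL by a narrow margin, with the nearest at 66.1 and 66.4 CPM. In thapsigargin it was 0.70 (edgeR adjusted p = 0.00658), with the 3 libraries at 100 ng/mL wholly above. That call was lost with the length and GC correction (0.43, edgeR adjusted p = 0.0194) and with the replicate block (edgeR adjusted p = 0.0221), and of the 6 libraries of that comparison only the omission of 1, library 1 at 100 ng/mL, kept it past the threshold. The interaction was 0.86 with an edgeR adjusted p of 0.0276, which missed the threshold of 0.01.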

How the results depend on the processing

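Counts of members called depended on single libraries and on the test, and the cause was not tested. Leaving out 1 library at a time, lower members with thapsigargin at 0 ng/mL ranged from 8 to 30 (all genes, 2.03% to 5.54%). At 10 ng/mL they ranged from 0 to 8 (all genes, 0.0202% to 0.846%) and at 100 ng/mL from 0 to 14 (0% to 7.84%). Higher members at 100 ng/mL ranged from 0 to 1 (all genes, 0.0273% to 9.78%). For 10 ng/mL in vehicle higher members ranged from 0 to 29 (all genes, 0% to 8.05%) and lower 0 to 2 (0% to 10.7%). For 100 ng/mL in vehicle they were 0 to 3 (all genes, 0.48% to 1.47%) and 0 to 1 (5.71% to 8.7%). For 100 ng/mL in thapsigargin they were 2 to 22 (all genes, 0.206% to 13.5%) and 1 to 4 (5.03% to 13.7%). For the interaction at 100 ng/mL they were 0 to 9 (all genes, 0% to 5.79%) and 0 to 1 (0.0134% to 2.82%). All others stayed at 0.

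DESeq2 gave 4 higher and 1 lower for 10 ng/mL in vehicle, 2 and 2 for 100 ng/mL in vehicle, 22 higher for 100 ng/mL in thapsigargin, 1 higher for thapsigargin at 0 ng/mL, 11 and 3 lower for thapsigargin at 10 and 100 ng/mL, and 6 higher for the interaction at 100 ng/mL. Without the filter on low counts these were 6 and 1, 2 and 2, 17 higher, then 2 and 1 lower, and 1 higher. The shares of all genes, in the same order, were 0.781% and 2.36%, 1.2% and 6.81%, 3.26%, 0.81% and 0.954%, and 0.174%. Scaling by library totals gave 7 higher for 100 ng/mL in thapsigargin (all genes, 1.46%). The fit with all 6 groups gave 6 and 2 lower for thapsigargin at 10 and 100 ng/mL (all genes, 1.43% and 4.71%). At 0 ng/mL it gave 14 lower (all genes, 3.39%). COX6B1, COX6C, NDUFA12, NDUFA2, NDUFB1, UQCR10 and UQCRB no longer passed there. The length and GC correction gave 1 higher for thapsigargin at 0 ng/mL, 4 and 2 lower at 10 and 100 ng/mL, 3 lower for 100 ng/mL in vehicle and 5 lower for 100 ng/mL in thapsigargin. At an adjusted p under 0.05 thapsigargin at 0 ng/mL gave 32 lower and 1 higher, and at 10 ng/mL 7 lower. In vehicle 100 ng/mL gave 2 lower, and in thapsigargin it gave 26 higher and 4 lower. The interaction at 100 ng/mL gave 4 higher. The shares of all genes at that threshold are not given here.

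With the replicate number as a block, thapsigargin at 0 ng/mL gave 35 lower and 1 higher, at 10 ng/mL 48 lower, 10 ng/mL in vehicle 1 higher and 1 lower, 100 ng/mL in vehicle 0 higher, 10 ng/mL in thapsigargin 13 higher and 100 ng/mL in thapsigargin 6 higher. With the block and the length and GC correction together, thapsigargin at 0 ng/mL gave 1 higher (all genes, 15.4%). At 10 ng/mL it gave 32 lower (all genes, 12.7%). In vehicle 10 ng/mL gave 1 higher and 1 lower (all genes, 0.703% and 1.52%) and 100 ng/mL 4 lower (11.8%). In thapsigargin 10 ng/mL gave 3 higher (all genes, 0.859%) and 100 ng/mL 5 lower (12.9%). Outside 10 against 0 ng/mL in thapsigargin, the correlations of same-numbered libraries did not all exceed 0.1. For thapsigargin against vehicle they were 0.44, -0.04 and 0.37 at 10 ng/mL. At 0 ng/mL they were 0.08, 0.17 and 0.23.

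Without SDHA the complex II sum stood at -0.47 in thapsigargin at 0 ng/mL and at -0.28 at 10 ng/mL, relative to vehicle at 0 ng/mL. At 100 ng/mL in vehicle, COX5A (-0.03) changed sign with library totals (0.016) and ranged from -0.13 to 0.0898 when 1 library was left out, and ATP5C1 (-0.11) from -0.18 to 0.0013. COX5A was above 0 without vehicle library 3 at 0 ng/mL or library 1 at 100 ng/mL, and ATP5C1 without vehicle library 2 at 0 ng/mL. Few counts limit ATP5E and COX6B2.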
